A study of Mus musculus with 2 samples.

Results

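Genes of the extracellular matrix are described here, 9 of the 14789 gene symbols measured, in pancreas cells of adult mice. The genes were taken by name from a list, and no threshold on a measured value chose them, although the list was drawn up with earlier results of these data known: the fibrillar collagen chains Col1a1, Col1a2 and Col3a1, the basement membrane collagen chains Col4a1 and Col4a2, the small leucine-rich proteoglycans Dcn (decorin) and Lum (lumican), and the matrix proteins Mgp and Sparc. All 9 had counts. Their levels were compared between endothelial, mesenchymal, acinar and other cells, which were told apart by genes outside the 9. Levels are given as CPM, the unique molecular identifiers (UMIs, 1 per captured transcript) of a gene per 1000000 UMIs of the class.

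The study profiled single pancreas cells of mice carrying Tff2CreERT2 and R26-tdTomato, in which tamoxifen switches on a red reporter in cells that express Tff2 and in their progeny. Both biological replicates were tamoxifen-induced, and no group without Cre, without tamoxifen or of another genotype was analysed here. Dissociated cells lacking CD45 (white cells) and TER119 (red cells) but bearing EpCAM (epithelium) and the red reporter had been sorted, then run on a 10x Genomics droplet platform. The 728 cells are in 1 table whose barcodes end in 1 (667 cells) or 2 (61 cells), and neither ending is tied to a replicate, so all cells are treated as 1 sample. There is therefore no test between replicates, and every interval given is an exact 95% interval for counting error only.

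A fibrillar collagen molecule winds 3 chains into a rod that packs into the fibrils of loose connective tissue. Type I collagen is built from the products of Col1a1 and Col1a2 and type III from Col3a1, and fibroblasts are their usual source. Type IV collagen, with the chains of Col4a1 and Col4a2 as its commonest pair, forms instead the sheet-like network of basement membranes, which endothelial cells and the pericytes around them lay down together. Decorin and lumican bind to collagen fibrils, MGP restrains calcification of vessel walls and cartilage, and SPARC binds collagens, type IV among them.

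The promoters show how differently these genes are placed. Col4a1 and Col4a2 lie head to head on chromosome 8 of GRCm38 (mm10), at 11198423 to 11312826 on the minus strand and 11312805 to 11449287 on the plus strand in GENCODE M21. Their annotated starts overlap by 22 bases, so that the first bases of both exons are shared. The stretch chr8:11312801-11312830, plus strand, is shown with the 22 shared bases in capitals, because it is the only segment that belongs to both members of the pair:

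Col4a2 and Col4a1, shared starts: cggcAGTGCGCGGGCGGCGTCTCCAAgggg

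The fibrillar genes are unlinked, on chromosomes 11 (Col1a1, 94936224 to 94953042), 6 (Col1a2, 4504814 to 4541544) and 1 (Col3a1, 45311538 to 45349706), all on the plus strand. For Col3a1, chr1:45311288-45311537 holds the 250 bases before the RefSeq start, with the letters TATAAA in capitals 117 to 112 bases before it. For Col1a2, chr6:4505370-4505492 is the part of the upstream window outside annotated exons, with 2 copies of the GC-box letters GGGCGG in capitals, 205 to 200 and 188 to 183 bases before the start. They are shown because both genes were high in the same class of cells while their upstream windows differ in GC content:

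Col3a1, upstream: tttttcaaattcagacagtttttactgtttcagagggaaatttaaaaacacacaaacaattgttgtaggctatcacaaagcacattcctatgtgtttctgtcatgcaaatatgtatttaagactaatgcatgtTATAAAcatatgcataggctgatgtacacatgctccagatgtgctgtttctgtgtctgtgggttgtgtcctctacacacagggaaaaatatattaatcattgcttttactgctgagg

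Col1a2, upstream: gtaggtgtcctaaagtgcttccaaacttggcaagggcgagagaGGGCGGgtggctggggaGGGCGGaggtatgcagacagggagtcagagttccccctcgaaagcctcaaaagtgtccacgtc

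Sequences came from RefSeq on GRCm38.p6, which had a promoter entry for 5 of the 9 genes: Col1a2, Col3a1, Col4a1, Col4a2 and Sparc. Upstream means before the RefSeq start. For Col1a2 and Sparc the window lies inside the span that GENCODE gives the gene. GC content of the window was 35.2% for Col3a1, 62% for Col1a2, 74.4% for Col4a1 and 73.6% for Col4a2, against a median of 52.4% over all windows. Searched on both strands in the 250 bases upstream, TATAAA was present in 12.4% of 32851 windows, GGGCGG in 32.7% and CCAAT in 33.8%. CCAAT was found upstream of Col1a2, Col4a1 and Col4a2 and GGGCGG upstream of Col1a2 and Col4a2, and none of the 3 motifs lay in the Sparc window. No matches overlapped, and a match describes the sequence only. The GGGCGG inside the capitals of the shared starts lies after both starts and is outside these windows.

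The other members have loci of their own. Dcn (97479609 to 97518143) and Lum (97565128 to 97572703) lie 46984 bases apart on chromosome 10, both on the plus strand. Mgp lies on the minus strand of chromosome 6 (136872435 to 136875823) and Sparc on the minus strand of chromosome 11 (55394500 to 55423183).

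Cells were placed in the first class whose rule they met. Endothelial cells had at least 5 UMIs of Kdr, Cdh5, Pecam1 and Egfl7 together. Mesenchymal cells had fewer than 5 of these and at least 2 UMIs of Pdgfra, Pdgfrb, Smoc2 and Igfbp6, and acinar cells had at least 10% of their UMIs from Ctrb1, Try4, Cela1 and Prss2. This gave 163 endothelial cells (22.4%), 19 mesenchymal cells (2.61%), 268 acinar cells (36.8%) and 278 other cells (38.2%). The classes held 393511, 62555, 1164802 and 732140 UMIs, with medians per cell of 1899, 3460, 2150.5 and 2125. A class is a range of a count and not a type: 9 other cells had 3 or 4 endothelial rule UMIs, and 12 endothelial cells had 5 or 6. In the mesenchymal rule, 4 cells lay 1 UMI below the threshold and no cell lay on it.

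Markers outside the rules were present in the classes named for them. All 10 genes of an endothelial list, such as Plvap and Flt1, were detected in the endothelial class, with a median of 23 summed UMIs per cell against 4 in the mesenchymal and 0 in the acinar and other classes. All 12 genes of a fibroblast list were detected in the mesenchymal class, although 2 of them, Ly6c1 and Cd34, were higher in endothelial cells. The sort marker EpCAM was nearly absent from both classes as RNA. Epcam had 2 UMIs in the 163 endothelial cells and 0 in the 19 mesenchymal cells (0 of 19 allows a share of up to 15.8%). It was found in 12 of 268 acinar cells (4.48%) and in 34 of 38 cells of the other class that carried ductal markers. Epcam is itself on the ductal list that assigned those 38 cells, so their share was partly fixed by that choice. Whether cells with little Epcam RNA carried the EpCAM protein was not tested. The row named RFP had 0 UMIs in the endothelial, mesenchymal and other classes and 2 in the acinar class. The other class held cells with markers that the sort was meant to leave out. Immune markers were carried by 203 of its cells, 70 of them with a UMI of Ptprc, which encodes CD45. A further 16 had at least 10% of their UMIs from an erythroid list led by globins. Tff2 UMIs were found in 24.5% of endothelial and 98.5% of acinar cells, at 201 and 6645 CPM, and the acinar list made 2.82% of endothelial UMIs. How far free RNA from other cells added to the counts of a class was not tested. In mesenchymal cells the acinar list made 1.19% of UMIs.

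Fibrillar collagen marked the mesenchymal class. The 3 genes together gave 821 UMIs in 19 mesenchymal cells, 13124.5 CPM (12242 to 14054), and 48 UMIs in 163 endothelial cells, 122 CPM (89.9 to 162). The ratio was 108 (80.4 to 147), and all 19 mesenchymal cells carried a fibrillar UMI against 14 endothelial cells. The mesenchymal class, with 2.61% of the cells, held 93.4% of all fibrillar UMIs in the table.

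Col1a1, the alpha 1 chain of type I collagen, had between 0 and 22 UMIs in a mesenchymal cell with a median of 7, and 157 in all (2509.8 CPM, 2133 to 2935). In the endothelial class it had 5 UMIs in 3 cells, and in the acinar and other classes 1 UMI each. The ratio of mesenchymal to endothelial cells was 198 (82.9 to 617).

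Col1a2, the alpha 2 chain of the same molecule, had 1 to 39 UMIs in every mesenchymal cell (median 9, 3309 CPM) and 9 UMIs in 4 endothelial cells (22.9 CPM), a ratio of 145 (74.8 to 321). No acinar UMI was found, which allows up to 2.58 CPM. The other class had 2 UMIs, both in the same cell.

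Col3a1, the single chain of type III collagen, had 1 to 60 UMIs in each of the 19 mesenchymal cells (median 21, 7306 CPM) and 34 UMIs in 13 endothelial cells (86.4 CPM). The ratio was 84.6 (59.6 to 124). Of the fibrillar UMIs of mesenchymal cells, 55.7% (52.2 to 59.1) were Col3a1, 25.2% Col1a2 and 19.1% Col1a1, shares that are not corrected for transcript length. In endothelial cells Col3a1 made 70.8% (55.9 to 83.0), of 48 UMIs.

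The proteoglycans followed the fibrillar chains. Dcn had 0 to 64 UMIs in a mesenchymal cell (median 22, 7066 CPM) and was found in 16 of 19. The endothelial class had 22 Dcn UMIs in 4 cells, 19 of them in 1 cell, and the ratio was 126 (82.4 to 204). Lum had 0 to 19 UMIs in a mesenchymal cell (median 6, 2190.1 CPM) in 15 of 19 cells and 3 UMIs in 3 endothelial cells. Its ratio of 287 (96.3 to 1410.2) rests on those 3 UMIs. In the acinar and other classes Lum had 0 UMIs, which allows up to 2.58 and 4.10 CPM.

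Mgp had 0 to 60 UMIs in a mesenchymal cell (median 10, 4652 CPM) in 15 of 19 cells. It had 33 UMIs in 4 endothelial cells (83.9 CPM, 57.7 to 118), and 0 in the acinar and other classes. The ratio of mesenchymal to endothelial cells was 55.5 (38.6 to 82.1), the lowest of the 6 genes that set the mesenchymal class apart by more than 50-fold.

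**Figure D1:**
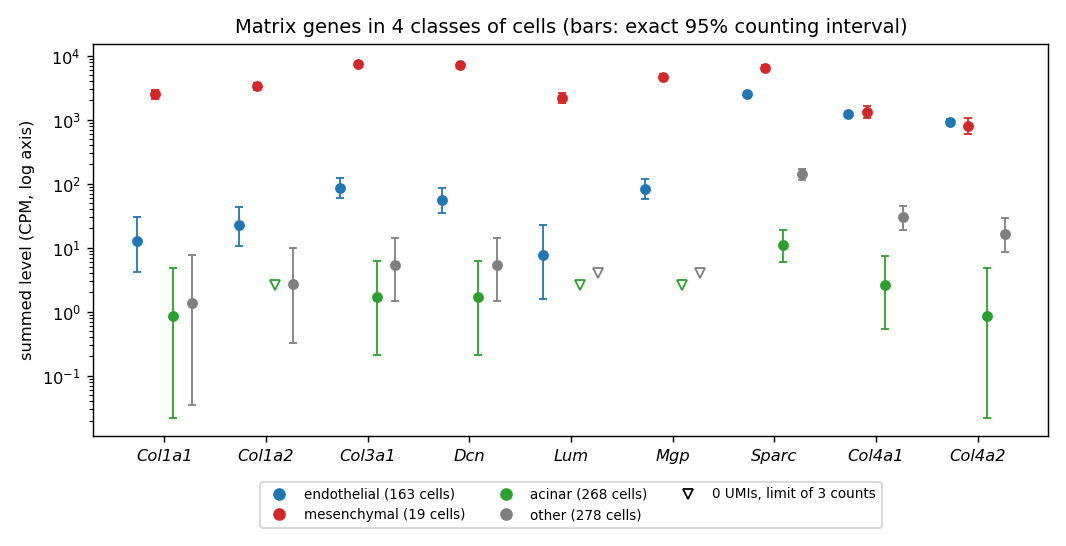
Summed level of each gene in CPM (log axis) in the 4 classes of cells, with exact 95% counting intervals; open triangles mark 0 UMIs and stand at the level that 3 counts would give. Col1a1, Col1a2, Col3a1, Dcn, Lum and Mgp stand highest in mesenchymal cells by more than 50-fold, whereas Col4a1 and Col4a2 stand at overlapping levels in endothelial and mesenchymal cells and Sparc is highest in mesenchymal cells.

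Basement membrane collagen was shared by the mesenchymal and endothelial classes. Col4a1 and Col4a2 together gave 840 UMIs in endothelial cells (2135 CPM, 1993 to 2284) and 132 in mesenchymal cells (2110.1 CPM, 1766 to 2502). The ratio was 0.989 (0.816 to 1.19), an interval that runs from 1.22-fold lower to 1.19-fold higher in mesenchymal cells.

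Col4a1 had 0 to 31 UMIs in an endothelial cell with a median of 2, and was found in 137 of 163 (84.0%). It had 0 to 19 UMIs in a mesenchymal cell with a median of 3, in 17 of 19. The summed levels were 1205 and 1311 CPM, a ratio of mesenchymal to endothelial cells of 1.09 (0.850 to 1.38).

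Col4a2 had 0 to 17 UMIs in an endothelial cell (median 2), in 127 of 163 cells (77.9%), and 0 to 13 in a mesenchymal cell (median 2), in 13 of 19. The summed levels were 930.1 and 799 CPM, a ratio of 0.859 (0.626 to 1.16). Both ranges of cells overlapped for both genes. With every cell thinned to 1000 UMIs, 58.9% of endothelial cells kept a Col4a1 UMI and 55.8% a Col4a2 UMI, against 63.2% and 57.9% of mesenchymal cells.

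The products of the 2 genes assemble with each other, and their UMIs stood in like proportion in both classes. Col4a1 made 56.4% of the pair's UMIs in endothelial cells (53.0 to 59.8) and 62.1% in mesenchymal cells (53.3 to 70.4). Of the 163 endothelial cells, 111 carried both transcripts, 26 only Col4a1, 16 only Col4a2 and 10 neither. The pair was unevenly spread: 21 cells with at least 10 UMIs held 342 of the 840 UMIs (40.7%).

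Sparc was carried by both classes but at unequal levels. It had 5 to 46 UMIs in each mesenchymal cell (median 17, 6458 CPM) and 0 to 57 in an endothelial cell (median 5, 2556 CPM), in 156 of 163 cells. The ratio was 2.53 (2.25 to 2.84). The cell counts of the classes overlapped, the highest count being in an endothelial cell of 7499 UMIs.

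Set against all genes, 7 of the 9 were at least 2-fold higher in mesenchymal than in endothelial cells, where 8.89% of 1496 genes with at least 50 UMIs over both classes were. None of the 9 was 2-fold lower, against 26.5% of these genes. All 9 passed the minimum of 50 UMIs, 6 of them only because of their mesenchymal counts, and the median log2 ratio over all genes was -0.26. The 9 were proposed with earlier results of these data in view, so the share is a description.

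In acinar cells the matrix genes were near the limit of detection. Col4a1 had 3 UMIs and Col4a2 1 in 1164802 acinar UMIs, and fibrillar collagen 3. The endothelial to acinar ratio was 622 (242 to 2287) for the basement membrane pair, 47.4 (15.3 to 238) for the fibrillar sum and 229 (133 to 432) for Sparc, which had 13 acinar UMIs in 11 cells. Of the 48 fibrillar UMIs, 37 lay in 9 endothelial cells that also carried at least 2 mesenchymal rule UMIs, and the fibrillar log2 ratio of 5.36 was 3.32 without the cells that met more than 1 rule. Mgp, with 0 acinar UMIs, was at least 32.6-fold higher in endothelial cells, again through those 9 cells. Col4a1, Col4a2 and Sparc were the members with at least 50 UMIs over this pair of classes, and all 3 were more than 2-fold higher in endothelial cells, as were 80.3% of 1938 genes. The acinar list took 66.2% of acinar UMIs and lowers every other gene there: the median log2 ratio over all genes was 2.65, and 1.12 with that list left out of the totals. Without it the log2 ratio of the basement membrane pair was 7.59 and that of the fibrillar sum 3.83.

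The other class held 34 basement membrane UMIs (46.4 CPM, 32.2 to 64.9), and the endothelial level was 46.0 times as high (32.6 to 66.8). Of these, 19 lay in the 9 cells with 3 or 4 endothelial rule UMIs, whose level was 1510 CPM (909 to 2358). The remaining 269 cells had 15 UMIs, 20.8 CPM, so the level in the near-threshold cells was 72.4 times as high (34.9 to 153). No fibrillar UMI was found in those 9 cells, which allows up to 238 CPM, above the 122 CPM of the endothelial class. Against the endothelial class, the ratio in these 9 cells was 0.858 (0.453 to 1.48) for Col4a1, 0.513 (0.187 to 1.13) for Col4a2 and 0.707 (0.424 to 1.11) for the pair, on 19 UMIs.

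Sparc in the other class had 103 UMIs in 30 cells (141 CPM). The 38 cells with ductal markers, a list that includes Epcam, had 31 of them in 16 cells (225 CPM, 153 to 319). Immune cells (203 cells with B or plasma, T or NK, or macrophage or dendritic markers) had 13 in 8 cells (27.6 CPM). The ratio of ductal to immune cells was 8.13 (4.13 to 16.9), and of endothelial to ductal cells 11.4 (7.96 to 16.8). The basement membrane pair had 8 UMIs in 7 ductal cells and 7 UMIs in 4 immune cells, a ratio of 3.90 (1.23 to 12.6). At least 1 of the immune cells was also among the 9 cells with 3 or 4 endothelial rule UMIs. That cell held 4 of the 7 UMIs of the pair and 3 of the 13 Sparc UMIs, and no ratio without it is given. Fibrillar collagen had 0 UMIs in ductal cells, which allows up to 21.7 CPM.

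A further 37 Sparc UMIs of the other class lay in 1 cell. Sparc reached 14122 CPM there. The cell held all 3 Col1a1 and Col1a2 UMIs of the other class and 3 of its 4 Col3a1 UMIs. It had 0 mesenchymal rule UMIs and 0 UMIs of Dcn, Lum and Mgp. No type is given to it, because the values of 1 marker list are not reported here. This cell was singled out after its values were seen.

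Within the mesenchymal class the cells divided by which rule gene they carried. In 16 cells Pdgfra, Smoc2 and Igfbp6 made most of the rule UMIs, and in 3 cells all rule UMIs were Pdgfrb, the receptor that marks pericytes and stellate cells as well as fibroblasts. A list of 13 measured pericyte, stellate and smooth muscle genes, such as Rgs5, Kcnj8 and Notch3, summed to 38, 49 and 52 UMIs in the 3 cells and to 0 to 5 in the 16. The division was made after the data were seen, and the 9 genes had no part in it.

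The 16 cells each carried Col1a1, Col1a2, Col3a1, Dcn and Sparc, and 15 of them carried Lum and 15 Mgp. The 3 Pdgfrb cells, with 7504 UMIs in all, carried no UMI of Col1a1, Dcn, Lum or Mgp. Against the 16 cells, Dcn was at least 20.1-fold, Mgp at least 13.2-fold, Col1a1 at least 7.13-fold and Lum at least 6.22-fold lower there, counting 3 UMIs over the 3 cells as the limit.

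Both other fibrillar chains were present in the 3 cells at lower levels. Col1a2 had 1, 1 and 3 UMIs and Col3a1 1, 2 and 4. The fibrillar sum was 1599 CPM against 14695.5 in the 16 cells, a ratio of 0.109 (0.0560 to 0.191). Even so, it was 13.1 times (6.34 to 25.1) the level of the endothelial class.

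Sparc went the other way, with 13, 24 and 41 UMIs in the 3 cells. Its level was 10394.5 CPM against 5922 in the 16 cells, a ratio of 1.76 (1.35 to 2.25). The basement membrane pair had 11 UMIs in the 3 cells and 121 in the 16, a ratio of 0.667 (0.324 to 1.24) whose interval spans equal levels. Leaving out the 3 cells, the log2 ratio of the mesenchymal to the endothelial class was 6.90 for the fibrillar sum and 0.05 for the basement membrane pair.

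**Figure D2:**
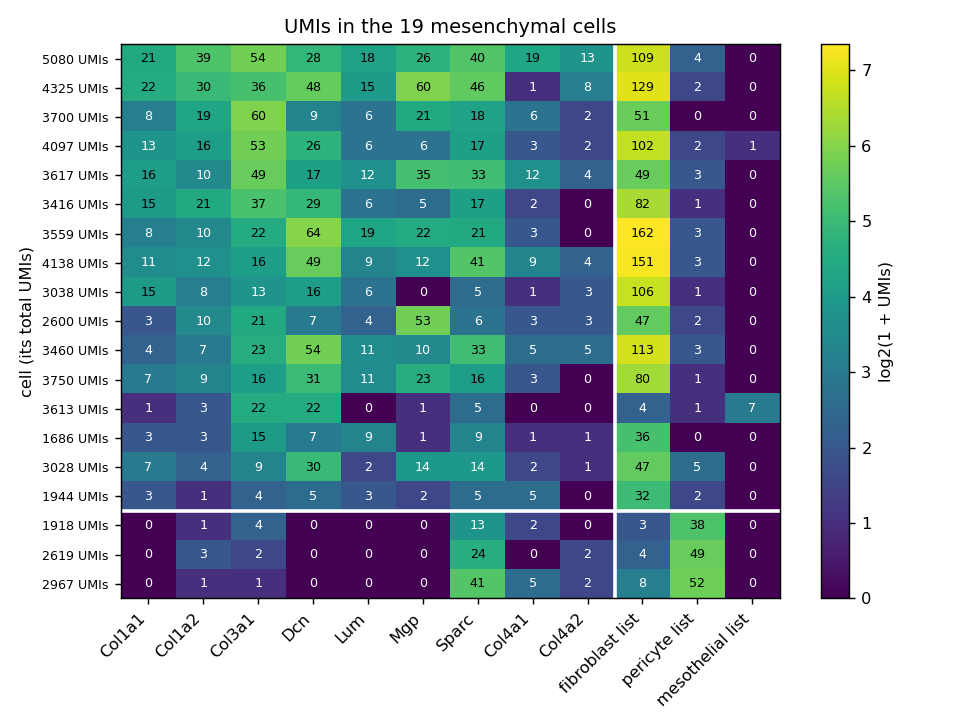
UMIs of each gene in each of the 19 mesenchymal cells (rows, labelled with the cell's total UMIs), with the summed UMIs of the fibroblast, pericyte and mesothelial marker lists at the right; colour gives log2(1 + UMIs). The 3 cells under the white line are the Pdgfrb cells, with 38 to 52 pericyte-list UMIs, 13 to 41 Sparc UMIs and no Col1a1, Dcn, Lum or Mgp.

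Among the 16 cells, 1 had 7 UMIs of 4 mesothelial list genes (Upk3b, Lrrn4, Wt1 and Gpm6a), and 4 UMIs of the fibroblast list. It carried 22 Dcn and 22 Col3a1 UMIs, but 1 of Col1a1, 1 of Mgp and 0 of Lum, Col4a1 and Col4a2. The other 15 cells had 2 to 19 Lum UMIs. Low Mgp and absent Col4a2 were not particular to this cell. Of the 16, 11 carried Col4a2, and among the other 15 a cell had 0 Mgp UMIs and another had 1. With a single mesothelial-marked cell among the 16, the pattern has no replicate.

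The endothelial class was divided in the same way, by the mesenchymal rule genes. Of the 163 cells, 9 also carried at least 2 mesenchymal rule UMIs and had been kept as endothelial because the endothelial rule was applied first. These 9 cells, 5.52% of the class with 9.10% of its UMIs, held 37 of its 48 fibrillar UMIs (77.1%), 20 of its 22 Dcn UMIs and all 33 Mgp UMIs. They held 8.81% of its basement membrane UMIs, about their share of all UMIs.

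Fibrillar collagen was 1034 CPM in the 9 cells and 30.8 CPM in the other 154, a ratio of 33.6 (16.8 to 73.1). Every one of the 9 cells carried 1 to 12 fibrillar UMIs, whereas 149 of the 154 carried none. Of the 11 fibrillar UMIs in the 154 cells, 7 were Col3a1 UMIs of 1 cell with no mesenchymal rule UMI and no pericyte-list UMI. Mgp was at least 110-fold higher in the 9 cells.

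For the basement membrane pair and Sparc the intervals spanned equal levels. The ratio of the 9 cells to the 154 was 0.965 (0.750 to 1.23) for the pair and 0.887 (0.699 to 1.11) for Sparc. Against the 154 cells alone, the mesenchymal class had a fibrillar ratio of 427 (237 to 858) and a basement membrane ratio of 0.985 (0.813 to 1.19). Mgp was then at least 555-fold and Col1a1 at least 299-fold higher in mesenchymal cells.

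Pericyte markers and depth had higher medians in the 9 cells than in the 154. At least 5 pericyte-list UMIs were carried by 8 of the 9 cells and by 5 of the 154. How closely pericyte-list and fibrillar UMIs of a cell went together was not tested. Among the 9, a cell with 12 fibrillar UMIs had 30 of the pericyte list, a cell with 9 had 8 and a cell with 2 had 43. Of the 11 fibrillar UMIs in the 154 cells, 8 lay in the 128 cells with 0 pericyte-list UMIs, 7 of them in 1 cell. The 5 cells with at least 5 pericyte-list UMIs held 2. The pericyte list summed to 1 to 44 UMIs per cell (median 25) in the 9, with none of its 13 genes at 0, and to 0 to 11 (median 0) in the 154. The median cell of the 9 had 4017 UMIs and that of the 154 had 1868. Endothelial list UMIs were 14 to 53 (median 33) in the 9 cells and 6 to 109 (median 22) in the 154. Scrublet, a caller of droplets with more than 1 cell, marked 0 of the 9. Whether such a barcode holds 1 cell or several was not tested.

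In 8 of the 9 cells the mesenchymal rule UMIs were all Pdgfrb, 2 to 6 per cell, with 8 to 44 pericyte-list UMIs. Mgp was present in 3 of these 8 cells, with 13, 4 and 2 UMIs, and Dcn in 1, with 1 UMI. The ninth cell had 11 Igfbp6 and 1 Smoc2 UMI, 12 mesothelial list UMIs, 1 pericyte-list UMI and 6 endothelial rule UMIs. It alone held 19 of the class's 22 Dcn UMIs and 14 of its 33 Mgp UMIs, with 1 Col4a2 and 0 Lum UMIs. It and the mesothelial-marked cell of the mesenchymal class together held 19 of the 22 mesothelial list UMIs of the whole table, and both carried Dcn without Lum.

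**Figure D3:**
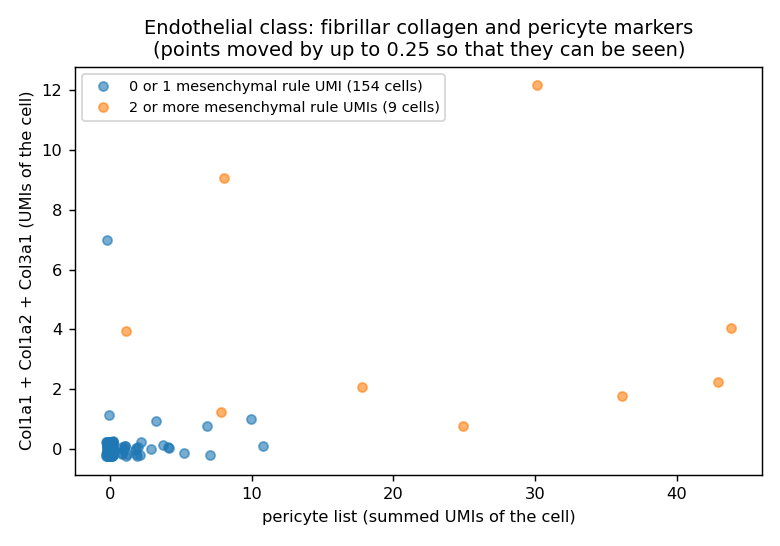
Summed fibrillar collagen UMIs (Col1a1, Col1a2 and Col3a1) against summed pericyte-list UMIs in each of the 163 endothelial cells, with points moved by up to 0.25 in each direction so that they can be seen. The 9 cells with at least 2 mesenchymal rule UMIs carry 1 to 12 fibrillar UMIs, and 149 of the other 154 cells lie at 0.

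**Figure D4:**
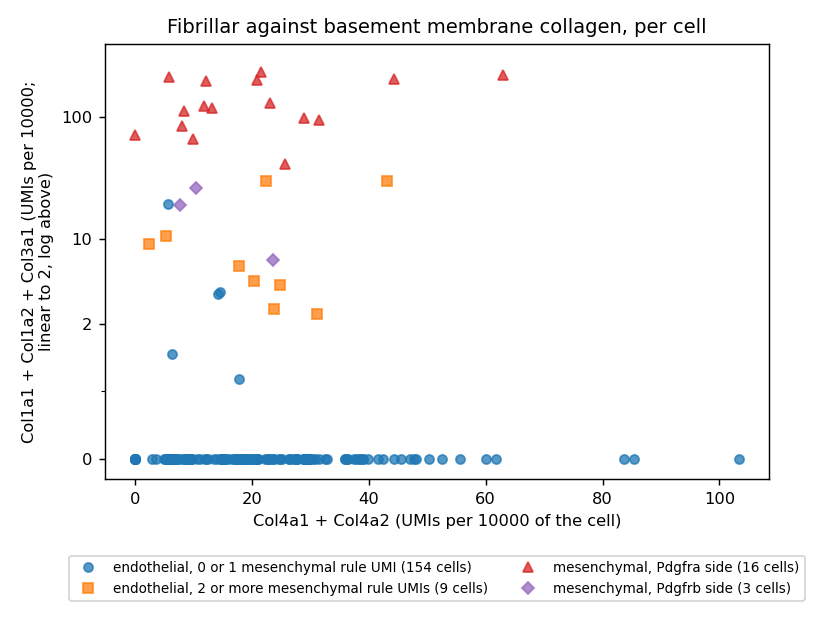
Fibrillar against basement membrane collagen per 10000 UMIs of the cell (vertical axis linear to 2 and logarithmic above), for endothelial and mesenchymal cells. The 16 cells of the Pdgfra side, where Pdgfra, Smoc2 and Igfbp6 together made most rule UMIs, stand above every endothelial cell on the vertical axis. The 3 Pdgfrb cells and the 9 endothelial cells with at least 2 mesenchymal rule UMIs lie between them and the endothelial cells at 0. The groups overlap along the horizontal axis.

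For the basement membrane pair and Sparc, endothelial markers gave smaller differences within the 163 cells. The 85 cells with at least 17 UMIs of a capillary list (Gpihbp1, Rgcc, Car4 and Plvap) had more of the basement membrane pair than the 78 cells below, with a ratio of 1.25 (1.09 to 1.45), and more Sparc, with a ratio of 1.37 (1.20 to 1.57). Their median depth was 2190 UMIs against 1672.5, and the part of depth in this was not tested. The 18 cells with a UMI of a venous list (Vwf, Nr2f2, Selp, Ackr1 and Vcam1) had less Sparc than the other 145, with a ratio of 0.707 (0.568 to 0.870), and 0.539 with the 9 cells left out. For the basement membrane pair the venous ratio was 0.816 (0.651 to 1.01), and 0.702 with the 9 cells left out, 5 of which are among the 18. The median depth was 2545.5 UMIs in the 18 cells and 1870 in the 145, whose part in this was not tested. The 69 cells with a UMI of an arterial list had a ratio of 0.903 (0.786 to 1.04) for the pair and 1.17 (1.03 to 1.32) for Sparc. Fibrillar collagen differed more by the venous list, at 589 CPM (31 UMIs) in the 18 cells and 49.9 CPM (17 UMIs) in the 145. All 22 Dcn and all 33 Mgp UMIs of the class lay in the 69 arterial-list cells, which include 7 of the 9 cells.

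The wider matrix programme was read from 9 lists, with 126 of 137 genes in the table and 33 with at least 50 UMIs over the mesenchymal and endothelial classes. Of the 33, 20 were at least 2-fold higher in mesenchymal cells, 3 were at least 2-fold lower and 10 lay between. Without the 9 members these counts were 13, 3 and 8 of 24, with a median log2 ratio of 1.32 against -0.26 over all genes. A gene with few endothelial UMIs reaches the minimum only when it is high in mesenchymal cells, so the counts are a description.

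The collagen VI chains, which form beaded filaments in connective tissue, were also far higher in mesenchymal cells. Col6a1 had 99 UMIs in mesenchymal and 8 in endothelial cells, a ratio of 77.8 (38.0 to 185). All 8 endothelial UMIs lay in the 9 cells with at least 2 mesenchymal rule UMIs. Col6a2 had 82 and 7 UMIs, with all 7 likewise in the 9 cells. Col6a3 had 55 and 2 UMIs, a ratio of 173 (45.7 to 1464). The 3 chains of collagen V, which is built into fibrils with collagen I, had too few UMIs for the minimum, at 21 and 2 for Col5a1, 32 and 7 for Col5a2 and 21 and 3 for Col5a3.

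The remaining lists were mixed. Of 3 small leucine-rich proteoglycans over the minimum, all were higher in mesenchymal cells: Dcn, Lum and Bgn (biglycan), with a ratio of 53.2 (29.9 to 103). Of 9 matricellular and microfibril genes, 5 were higher, among them Mgp, Sparc and Dpt (dermatopontin), which had 57 mesenchymal and 0 endothelial UMIs and was at least 120-fold higher. Mfap2 had a ratio of 3.43 (2.12 to 5.45) and Fbln5 2.62 (1.33 to 4.91). Sparcl1 (1.31), Fbln2 (1.04) and Thbs1 (0.669) lay between.

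Of 4 collagen synthesis genes, 2 were higher. Pcolce, which aids the trimming of procollagen, had a ratio of 48.6 (28.3 to 89.7), and Serpinh1, the collagen chaperone of the endoplasmic reticulum, 3.77 (2.99 to 4.74). P4hb (1.49), a subunit of the enzyme that hydroxylates collagen prolines, and Ppib (1.47) lay between. Of 2 inhibitors of matrix proteases, Timp2 had a ratio of 40.1 (18.9 to 97.9) and Timp3 one of 1.18 (0.817 to 1.65).

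Among the partners of collagen IV the classes were closer. Nid1 (nidogen, which joins laminin and collagen IV) had a ratio of 4.75 (3.12 to 7.18), Lamc1 (laminin gamma 1) 3.06 (1.64 to 5.51) and Col15a1 2.32 (1.69 to 3.13). Hspg2 (perlecan) had 1.64 (1.20 to 2.22), under the 2-fold threshold. Lama5, a laminin chain of vessel walls, had 18 endothelial and 0 mesenchymal UMIs, and Lama2 1 and 13, both under the minimum.

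In the opposite direction, 3 matrix genes were at least 2-fold higher in endothelial cells. Igfbp7, a secreted protein of vessel walls, was 4417 CPM in endothelial and 2126 in mesenchymal cells, a ratio of 0.481 (0.400 to 0.574). Col13a1, a membrane-spanning collagen, had 69 UMIs in 51 endothelial cells and 0 in mesenchymal cells, at least 3.66-fold lower there. Itga6, a laminin-binding integrin chain, had 105 and 0 UMIs, at least 5.56-fold lower.

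**Figure D5:**
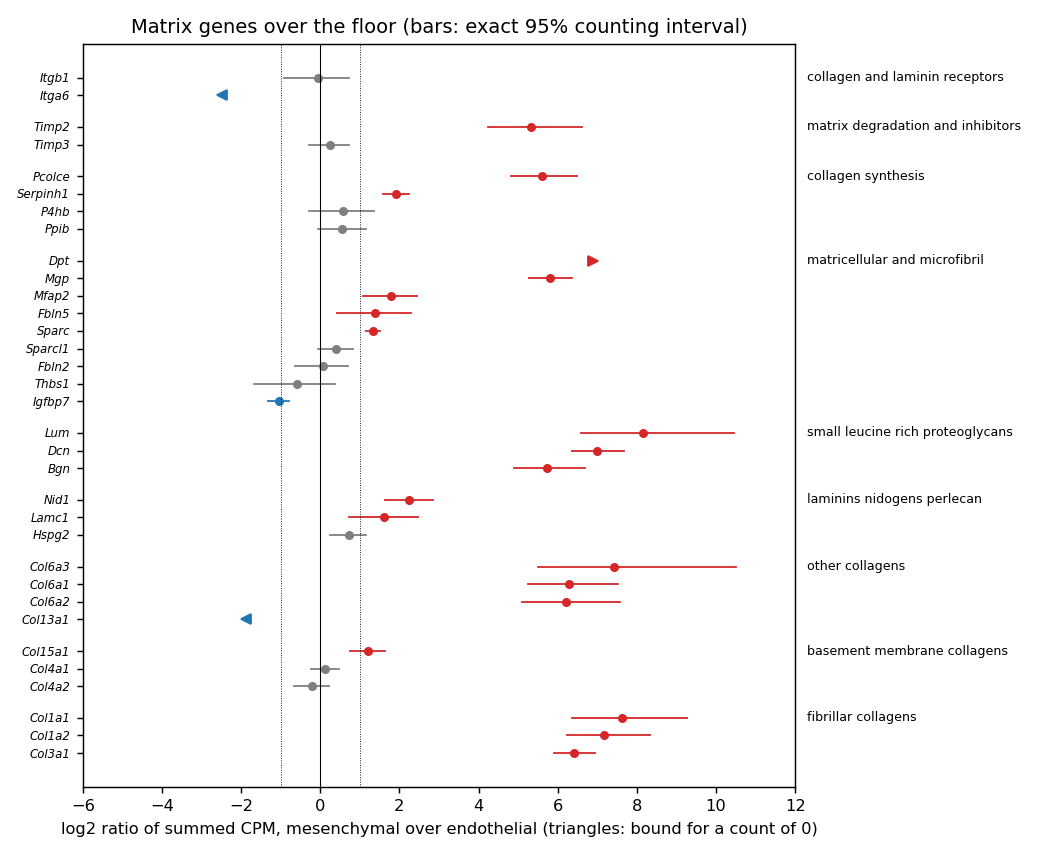
Log2 ratio of the summed CPM, mesenchymal over endothelial, for the 33 matrix genes with at least 50 UMIs, grouped by list, with exact 95% counting intervals; triangles mark bounds where a class had 0 UMIs and dotted lines mark a 2-fold ratio. Fibrillar collagens, collagen VI chains and leucine-rich proteoglycans lie far to the right, whereas Col4a1 and Col4a2 lie at 0.13 and -0.21.

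Over all 728 cells, the genes whose level per cell followed the fibrillar sum most closely were Meg3 (Pearson r of log values 0.911), Serping1 (0.877), Col6a1 (0.872), Gsn (0.864) and Dcn (0.862), of 6805 genes. For the basement membrane pair they were Igfbp7 (0.891), Sparc (0.849), Plvap (0.842), Fabp4 (0.823) and Eng (0.822), of 6806. Only genes with a UMI in at least 20 cells were ranked, which left out Lum (18 cells) and Mgp (19 cells). The values are a description over cells that share libraries and differ in class. Within the 154 endothelial cells with under 2 mesenchymal rule UMIs, Sparc had an r of 0.05 with the pair.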

How the data were processed

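Single pancreas cells of 2 biological replicates were measured on the 10x platform. The authors deposited 1 table of whole UMI counts for 14793 gene rows (14789 symbols, 4 on 2 rows, which were summed) and 728 cells, with 1004 to 53222 UMIs per cell (median 2085.5) and 2353008 in all. Cell Ranger and mm10 are named per the submitters' processing notes; the sources used here give no versions, annotation or cell filters. No further cell filter was applied.

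UMIs were summed over each class and given as CPM, with exact Poisson intervals. Shares have Clopper-Pearson intervals, and ratios exact conditional binomial intervals, all at 95%. A count of 0 was read as up to 3 UMIs per set of cells. Log2 ratios used a prior of 0.5 counts, with a call at 2-fold and a minimum of 50 UMIs over both classes. The ratios and intervals were tested on simulated Poisson sums with known folds. These had no spread between cells, so how the intervals fare under such spread was not tested. Of the symbols, 14333 matched GENCODE M21, all 9 members among them.

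The 9 members, the class rules and the marker and matrix lists were chosen with earlier results of these data known. Named genes were the members, in each matrix list up to 4 at each end past 2-fold, and the 5 most alike each collagen sum; other genes and single cells were named after their values were seen. Scrublet (scanpy 1.11.5) called 3 cells (0.412%) as doublets, which were kept. The values of 1 marker list are not reported here. Of the barcode sequences, 7 occur under both endings, in 14 cells, all acinar. Alternatives covered totals, barcode endings, class thresholds, cells left out, weighting, thinning to 1000 UMIs and list minimums. Python 3.11.15, scipy 1.17.1 and pandas 2.3.3 were used.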

Additional observations from a re-analysis of the deposited data

How the results depend on the processing

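No replicate of the study could be left out and no test between replicates was possible, since neither barcode ending is tied to a replicate. No paired analysis was possible because the cells carry no replicate number and there is only 1 group. Of 94 values of the collagen sums and list counts under alternatives, 74 stayed within the counting interval or within 1.5 times the count, 20 moved and none changed the direction of a 2-fold call. The fibrillar log2 ratio of mesenchymal to endothelial cells, 6.74, was 4.11 in barcode ending 2 alone (1 cell a class), 8.77 without cells that meet more than 1 class rule, 7.25 as a mean over cells and 7.63 after thinning. The basement membrane ratio, -0.01, was 0.67 in ending 2. Endothelial against acinar, the fibrillar ratio of 5.36 was 3.83 with totals without the acinar list, 3.32 without cells that meet more than 1 rule and 3.38 after thinning, and the basement membrane ratio of 9.11 was 7.59 without the acinar list and 7.73 after thinning. Endothelial against other, the fibrillar ratio of 3.59 was 1.55 without cells that meet more than 1 rule and 5.51 with the highest cell of each class left out. The basement membrane ratio of 5.50 was 3.97 in ending 2, 6.62 with the endothelial threshold at 3 UMIs, 3.97 with it at 10, 6.14 with the acinar threshold at 30%, 4.81 as a mean over cells and 4.75 after thinning. With a minimum of 20 UMIs, 47 matrix genes were higher in mesenchymal cells in place of 20, and 6 lower in place of 3, because more genes pass. Ending 2 gave no fibrillar value for endothelial cells against acinar or other cells. With 19 mesenchymal cells, 3 of them Pdgfrb cells, the counts behind the small groups limit every statement on them. Leaving out the Pdgfrb cells was chosen after seeing the data and moved none of these values past its interval.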
